A study of Rattus norvegicus with 8 samples.

Results

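The transcripts described here are those that gave a clear signal in the small intestine of rats given lavender oil (LO) by mouth. They were found on the pair of small intestine arrays. Every non-control feature that the scanner software called well above background in both dye channels on both arrays was kept, and copies of a probe were averaged. This gave 22799 of the 41012 non-control probes, or 24411 of 43379 features. Their signals, and not their LO/control ratios, decided their membership. A RefSeq gene symbol was matched to 7311 of these probes, which stand for 5934 genes, and the other probes keep the identifier of the array design.

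The study compared 12 male rats, 7 weeks old, 6 per group. The LO group received 5 mg/kg LO in 10% ethanol into the stomach once a day for 13 days, and the control group received 10% ethanol alone. Both groups therefore shared the ethanol, the handling and the diet. The tissues were taken on day 14, and the piece of intestine was cut about 20 cm from the duodenum and washed in saline. One sample field gives the strain as Wistar, and the growth protocol and the methods of the study give Fischer (F334), so the strain is not settled here. The RNA of each group was pooled before labelling, and the same LO pool and control pool were put on both arrays of a 2-colour rat whole-genome chip. LO carried the red dye Cy5 on array 1 and the green dye Cy3 on array 2. The pair is thus a dye swap of 1 comparison. The spread between the arrays measures labelling and hybridization, and differences between single rats cannot be seen in these data.

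The lining of the small intestine is a single layer of cells that is renewed from crypts. Enterocytes carry digestive enzymes and transporters on their brush border, and pass fat, sugar and amino acids to the blood and lymph. Goblet cells secrete mucus, and Paneth cells and enterocytes secrete antibacterial proteins. Plasma cells, T cells and mast cells lie beneath the lining. LO is rich in the monoterpenes linalool and linalyl acetate. The question put to these arrays was which transcripts of the intestine differ after repeated oral LO.

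The array pair was bright enough to see the transcripts that define the tissue. *Alpi*, the alkaline phosphatase of the brush border, had control signals of 90748 and 63209, and *Tff3*, a goblet cell peptide, was also bright. No member was saturated. The lowest of a member's 4 signals had a median of 231 on the linear, dye-normalized scale. *Gapdh*, the housekeeping enzyme measured by 11 features, gave a log2 LO/control of -0.08 on array 1 and -0.02 on array 2. Among 181 probes printed at least 5 times, the SD between copies had a median of 0.04 log2 units on each array.

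The 2 arrays opposed each other more than they ran together. Over the 22799 probes the log2 LO/control had an SD of 0.22 on array 1 and 0.21 on array 2, and the 2 arrays were correlated with a Pearson r of -0.57 across probes, which are not independent replicates. When the arrays were averaged the SD fell to 0.10, and 99.1% of the probes lay within 0.32 log2 units of no difference. Opposite values of at least that size on both arrays were seen for 1003 probes (4.4%). Of these, 324 were bright in every tissue, and 96.3% of the 324 leaned towards the same dye in the mean of the spleen and liver pairs. The r of -0.57 was taken over all bright probes only. After the dye effect of the other pairs was subtracted, r was -0.54 over the smaller set of 14827 probes bright in every pair. A transcript is therefore called higher or lower below only where both arrays gave that direction, and each array's value is printed.

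Few bright transcripts differed in the same direction on both arrays, and the differences were small. With LO, 34 probes were higher by at least 0.32 log2 units on both arrays (0.149% of those measured) and 16 were lower by as much (0.0702%). Over the 5934 genes, each averaged over its probes, 10 genes were higher by this limit (0.169%) and 3 lower (0.0506%). The cut-offs of the study's methods, 1.5-fold up and 0.75-fold down with the dyes exchanged, were met by 5 probes upwards (0.0219%) and 3 probes downwards (0.0132%). In either direction without a threshold, 15.6% of probes were higher on both arrays and 13.2% lower. The probe nearest inside the 0.32 limit upwards had a smaller of both log2 values of 0.325, and the nearest outside it had 0.320.

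The limma package called 1 probe higher (0.00439%) and 0 lower at an adjusted p below 0.05, among 474 and 461 probes with an unadjusted p below 0.05. The called probe, for the transcript cluster TC623864, had a log2 LO/control of -0.20 on array 1 and 2.84 on array 2, and its feature on array 2 was flagged as an outlier by the scanner software. Without flagged features 0 probes were called. With all 8 arrays and dye orientation as a replicate block, the fit called 0 higher and 0 lower. No gene or immunoglobulin probe named below passed this test. The lowest adjusted p among the probes of genes named by symbol was 0.99994. Other settings of limma did call some of them. With an intensity trend 4 probes were called higher and 4 lower, among them the immunoglobulin probes L22655, M87784, AJ250889, L17078 and NM_001013945. With normexp correction 16 were called higher and 35 lower, among them probes of *Reg3b*, *Reg3g*, *Sgk1*, *Amy2a3*, *Amy1*, *Gp2*, *Acta1*, *Cyp2b12* and *Cyp2b21*. The error in this fit comes from the difference between the 2 liver pools of the series, since the intestine has a single pool per group. Whether the liver pools hold different rats is not stated. Such a difference was available for 15433 of the 22799 probes. Those of *Reg3b* and *Reg3g*, and the immunoglobulin probes past the methods' cut-offs, were not among them. They received only the shared error of 0.085 log2 units, and none of their own.

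**Figure D1:**
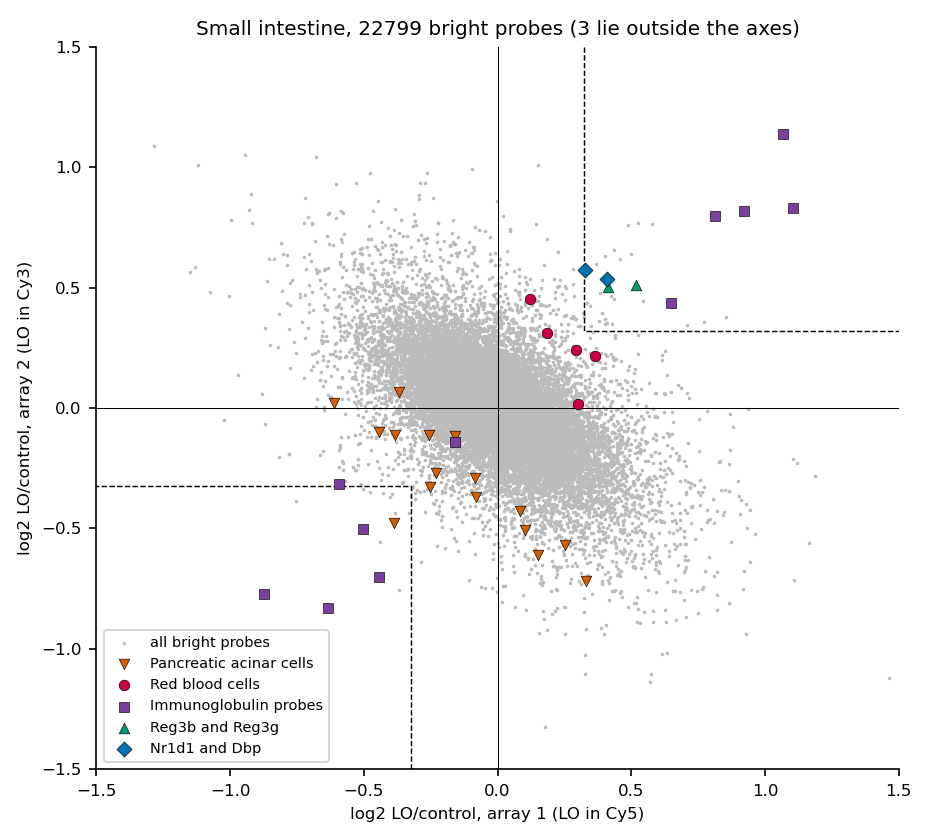
Log2 LO/control of each bright small intestine probe on array 1 (x axis, LO in Cy5) and array 2 (y axis, LO in Cy3), with named groups coloured and genes averaged over their probes. The grey cloud runs from the upper left to the lower right, where the arrays oppose each other, and the dashed corners hold the 34 probes higher and the 16 probes lower by at least 0.32 log2 units on both arrays.

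Transcripts of the antibacterial lectins *Reg3b* and *Reg3g* were higher with LO, and *Reg3b* stood first among all named genes that were higher when ranked by the smaller of both array values. These small secreted proteins of the gut lining bind and kill bacteria, and their genes lie near each other on chromosome 4. *Reg3b* had a signal of 23171 in control and 33185 with LO on array 1, and of 20513 and 29254 on array 2. *Reg3g* had a signal of 2419 in control and 3222 with LO on array 1, and of 2114 and 2999 on array 2. For each gene the LO signal was the higher one on both arrays, which a high rank by the smaller of both array values requires. The log2 LO/control of *Reg3b* was 0.52 on array 1 and 0.51 on array 2, a mean of 1.43-fold. That of *Reg3g* was 0.41 and 0.50, a mean of 1.37-fold. The 2 values of *Reg3b* lay close together, and ranking by the smaller of both array values favours such closeness.

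The third member of the family on the list, *Reg3a*, stood on the other side of 0 at far lower signals. Its signal was 123 in control and 110 with LO on array 1, and 88.7 and 69.1 on array 2. The log2 LO/control was -0.17 and -0.36. None of the 3 was bright in the spleen or the liver pairs, so their direction there was not measured.

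Since *Reg3b* and *Reg3g* were higher together, the 250 bases before their annotated starts are shown, from RefSeq on the rat assembly GRCr8 and in the 5′ to 3′ direction of each gene. Capitals mark the longest run that the windows share, CTGCTAACAGGAAAG, and the letters TATAAA.
Reg3b, chr4:112419526-112419775, + strand: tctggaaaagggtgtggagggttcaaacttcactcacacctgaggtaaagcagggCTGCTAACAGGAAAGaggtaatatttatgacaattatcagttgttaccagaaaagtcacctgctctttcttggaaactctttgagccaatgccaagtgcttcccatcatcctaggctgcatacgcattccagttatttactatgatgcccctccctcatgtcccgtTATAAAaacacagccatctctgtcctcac
Reg3g, chr4:112484739-112484988, - strand: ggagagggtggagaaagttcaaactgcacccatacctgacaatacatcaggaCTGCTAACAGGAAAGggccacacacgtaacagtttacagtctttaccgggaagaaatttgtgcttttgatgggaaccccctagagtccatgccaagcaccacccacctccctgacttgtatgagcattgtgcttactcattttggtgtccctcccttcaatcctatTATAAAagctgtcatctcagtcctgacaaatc

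The shared run of 15 bases begins 195 bases before the start of *Reg3b* and 198 before that of *Reg3g*. On either strand it was found in 2 of 33469 such windows (0.00598%), which are these 2. The run was taken from them, so both matches were fixed in advance. The letters TATAAA begin 29 and 32 bases before the starts and were found, on either strand, in 12.9% of windows. Neither of the *Reg3a* windows held either. A match in letters describes the sequence and does not show that a factor binds there.

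Of the 11 goblet and Paneth cell genes measured, 6 were higher on both arrays and 2 lower, where all bright genes gave 15.9% higher and 14.4% lower. The median log2 LO/control was 0.07 against 0.00 for all 5934 genes. Without the 3 lectin genes, 4 of the other 8 were higher, 1 was lower and 3 were opposite, and their means lay between -0.12 and 0.09. *Pla2g2a*, a phospholipase that lyses bacteria, had 0.08 on both arrays. The goblet cell products *Tff3* and *Zg16* had opposite values on the 2 arrays. *Pigr*, the receptor that carries antibodies across the lining, was lower, at -0.06 and -0.18.

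Of the circadian clock genes, *Nr1d1* and *Dbp* were higher with LO, and 4 others were slightly lower. The clock runs in nearly all cells as a loop in which *Bmal1* drives its own repressors, among them *Nr1d1*, which in turn represses *Bmal1*. *Nr1d1* had a signal of 187 in control and 248 with LO on array 1, and of 141 and 205 on array 2. *Dbp*, a transcription factor driven by the clock, had 355 and 446 on array 1 and 271 and 404 on array 2. In both genes the LO channel was the brighter one under either dye, which is required of any gene called higher here. The log2 LO/control was 0.41 and 0.54 for *Nr1d1*, a mean of 1.39-fold, and 0.33 and 0.57 for *Dbp*, a mean of 1.37-fold.

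*Bmal1* gave -0.17 and -0.14, with a signal of 2309 in control and 2057 with LO on array 1, and of 1926 and 1747 on array 2. *Nfil3*, a repressor that acts at the sites *Dbp* uses, gave -0.15 and -0.20. *Cry1*, a repressor of the loop, gave -0.23 and -0.10, and *Bhlhe40*, another repressor, gave -0.14 and -0.07. *Per2* and *Bhlhe41* had opposite values on the 2 arrays. Of the 8 clock genes measured, 2 were thus higher and 4 lower on both arrays, beside 15.9% and 14.4% of all genes, with a median of -0.09. Background correction by normexp lowered the means to 0.23 for *Nr1d1* and 0.28 for *Dbp*. The time of day of dissection in each group was not given in the sources used here, and its part in these values was not tested.

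The windows before *Nr1d1* and *Bmal1* show the kind of letters through which the loop is known to run. Capitals mark the E-box CACGTG in the nearer of the 2 annotated *Nr1d1* windows, and the letters AGTAGGTNA of the RORE type in that of *Bmal1*.
Nr1d1, chr10:84229455-84229704, - strand: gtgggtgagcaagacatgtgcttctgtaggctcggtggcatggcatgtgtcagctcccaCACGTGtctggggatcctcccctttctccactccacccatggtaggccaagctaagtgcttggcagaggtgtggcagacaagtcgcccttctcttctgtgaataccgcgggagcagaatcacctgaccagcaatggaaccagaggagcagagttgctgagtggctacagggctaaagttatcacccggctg
Bmal1, chr1:176766078-176766327, + strand: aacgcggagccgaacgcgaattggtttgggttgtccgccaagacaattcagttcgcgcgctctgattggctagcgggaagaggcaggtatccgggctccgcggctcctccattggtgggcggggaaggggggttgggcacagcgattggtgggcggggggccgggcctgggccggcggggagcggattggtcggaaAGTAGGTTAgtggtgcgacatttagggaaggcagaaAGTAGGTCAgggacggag

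On either strand CACGTG was found in 5.59% of the 33469 windows and AGTAGGTNA in 0.511%, and the *Bmal1* window held the second 2 times. The second is a pattern of the *Bmal1* type, so its matches in that window are not a separate result. The *Bhlhe40* window also held CACGTG. The *Dbp*, *Nfil3* and *Per2* windows held neither in these 250 bases, which says nothing about sites outside them.

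Red blood cell transcripts were higher with LO throughout. All 5 measured genes of the list were higher on both arrays, where 15.9% of all genes were. Their median log2 LO/control was 0.27 against 0.00 for all genes. *Hbb-b1*, a beta globin gene, had a signal of 15992 in control and 19612 with LO on array 1, and of 13850 and 16368 on array 2. *Hba-a3*, an alpha globin gene, gave log2 values of 0.18 and 0.31, and *Hbb* gave 0.12 and 0.45. *Alas2*, the first enzyme of heme synthesis in red cell precursors, gave 0.37 and 0.22. *Slc4a1*, the anion exchanger of the red cell membrane, gave 0.30 and 0.02 at signals of 59.1 to 77.1. Globin probes may share targets, so the globin values are not independent of each other. In a bulk sample more cells of a type and more RNA per cell cannot be told apart, and how much blood each sample held was not measured.

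Averaged over both arrays of a pair, the same 5 genes lay above 0 in the spleen and below 0 in the liver. In the spleen their mean log2 LO/control lay between 0.22 and 0.35, but the 2 spleen arrays opposed each other for *Hba-a3*, at 1.17 and -0.58, and for *Hbb-b1*, at 0.45 and -0.01. It lay between -0.23 and -0.15 in the liver pair labelled Group1 and between -0.19 and -0.02 in Group2. The differences between the intestine and the other tissues did not pass the adjusted test for any of the 5. *Hbb-b1*, for example, differed from the liver by 0.44 log2 units (SE 0.10, limma adjusted p = 0.989).

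**Figure D2:**
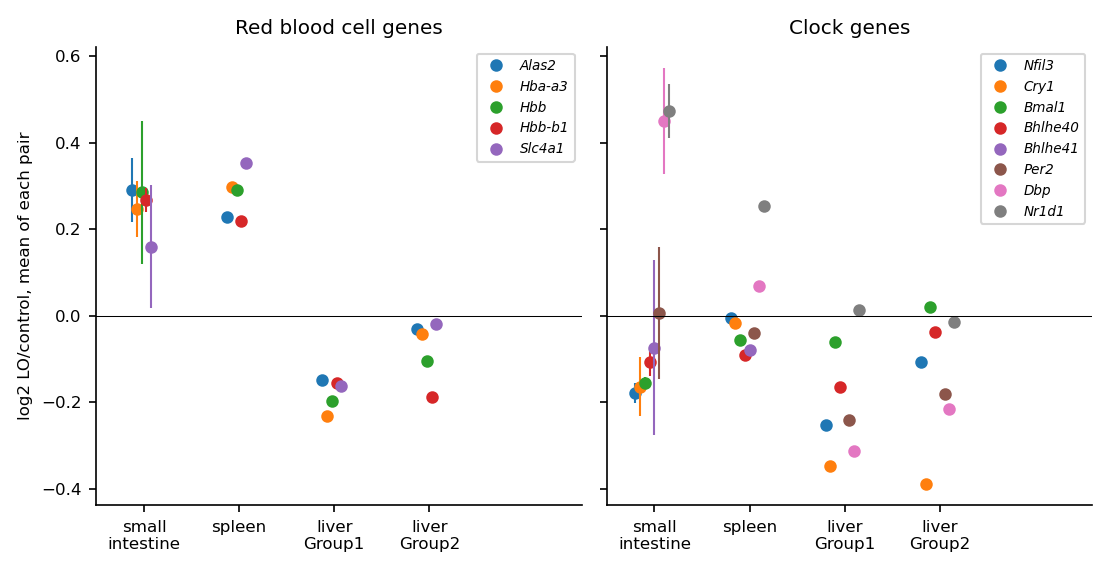
Mean log2 LO/control of the red blood cell genes and of the clock genes in the 4 dye-swap pairs (y axis). Vertical lines in the small intestine join the values of its 2 arrays, and genes that were not bright in a pair have no point there. Red blood cell genes lie above 0 in the intestine and spleen and below 0 in both liver pairs, while *Nr1d1* and *Dbp* stand above the other clock genes in the intestine.

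Of 7 mast cell markers measured 4 were higher on both arrays and 0 lower, beside 15.9% and 14.4% of all genes, with a median of 0.14. *Mcpt1*, a mast cell protease of the gut lining, gave 0.24 and 0.16, with a signal of 5112 in control and 6045 with LO on array 1 and of 4476 and 4992 on array 2. *Cma1*, a chymase, gave 0.05 and 0.24, and *Ms4a2*, a chain of the IgE receptor, gave 0.21 and 0.07 at signals of 38.6 to 56.6. The median of the list depended on the setting. It was 0.05 on array 1 alone, 0.09 on array 2 alone, 0.07 with all signals at least 200, and 0.02 with normexp correction.

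Markers of other immune cells had list medians of at most 0.06. Of all genes, 15.9% were higher on both arrays and 14.4% lower. For T and cytotoxic cells 4 of 13 genes were higher and 0 lower, with a median of 0.06. This came from a median of 0.14 on array 1 and 0.01 on array 2. *Gzma*, a granule protease, gave 0.05 and 0.19. For macrophages and MHC class II genes 3 of 15 were higher and 1 lower. For B and plasma cell genes outside the antibody genes themselves, 1 of 6 was higher and 2 lower.

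Probes for antibody chains gave the largest same-direction differences and ran both ways. All 8 probes past the cut-offs of the methods carry an immunoglobulin name in the study's supplementary descriptions. The kappa chain probe L22655 had a signal of 2111 in control and 4422 with LO on array 1, and of 1840 and 4052 on array 2. Its log2 LO/control was 1.07 and 1.14. The light chain probe M87788 had a signal of 420 in control and 229 with LO on array 1, and of 338 and 198 on array 2, with log2 values of -0.87 and -0.77. The lowest limma adjusted p among these probes was 0.264, for L22655. The study gave these names to transcripts it had listed as changed, so other antibody probes may be unnamed here and no share is given. Antibody variable regions resemble each other, and whether these probes separate single chains was not tested.

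Other single genes were also higher on both arrays, most of them at low signals. *Aqp3*, a channel for water and glycerol in epithelia, had a signal of 213 in control and 281 with LO on array 1 and of 176 and 228 on array 2. Its log2 values were 0.40 and 0.37, and it was higher in the spleen too, with a mean of 0.64. *Aim2*, a sensor of DNA in the cytosol, gave 0.38 and 0.36. *Pfkfb3*, which sets the level of an activator of glycolysis, gave 0.34 and 0.42, and the vessel growth factor *Angpt1* gave 0.36 and 0.32. *Lrrc46* gave 0.42 and 0.47, and *Vax2*, *Gpr182* and *Rhbdd1* were higher on both arrays too. All of these but *Aqp3* had signals below 100. Under normexp correction, which adds a constant to every signal, the 11 leading genes of such low signal kept at most 42.3% of their log2 value.

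Of the 15 gut hormone and enteroendocrine genes 2 were higher on both arrays and 1 lower, with a median of -0.03, and so no more often higher than the 15.9% of all genes. *Pyy*, a peptide that slows gut movement and reduces appetite, had a signal of 181 in control and 259 with LO on array 1, and of 168 and 188 on array 2. Its log2 LO/control was 0.52 and 0.16, so that the size rested mainly on array 1. *Gcg*, which encodes the glucagon-like peptides, gave 0.14 and 0.20.

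**Figure D3:**
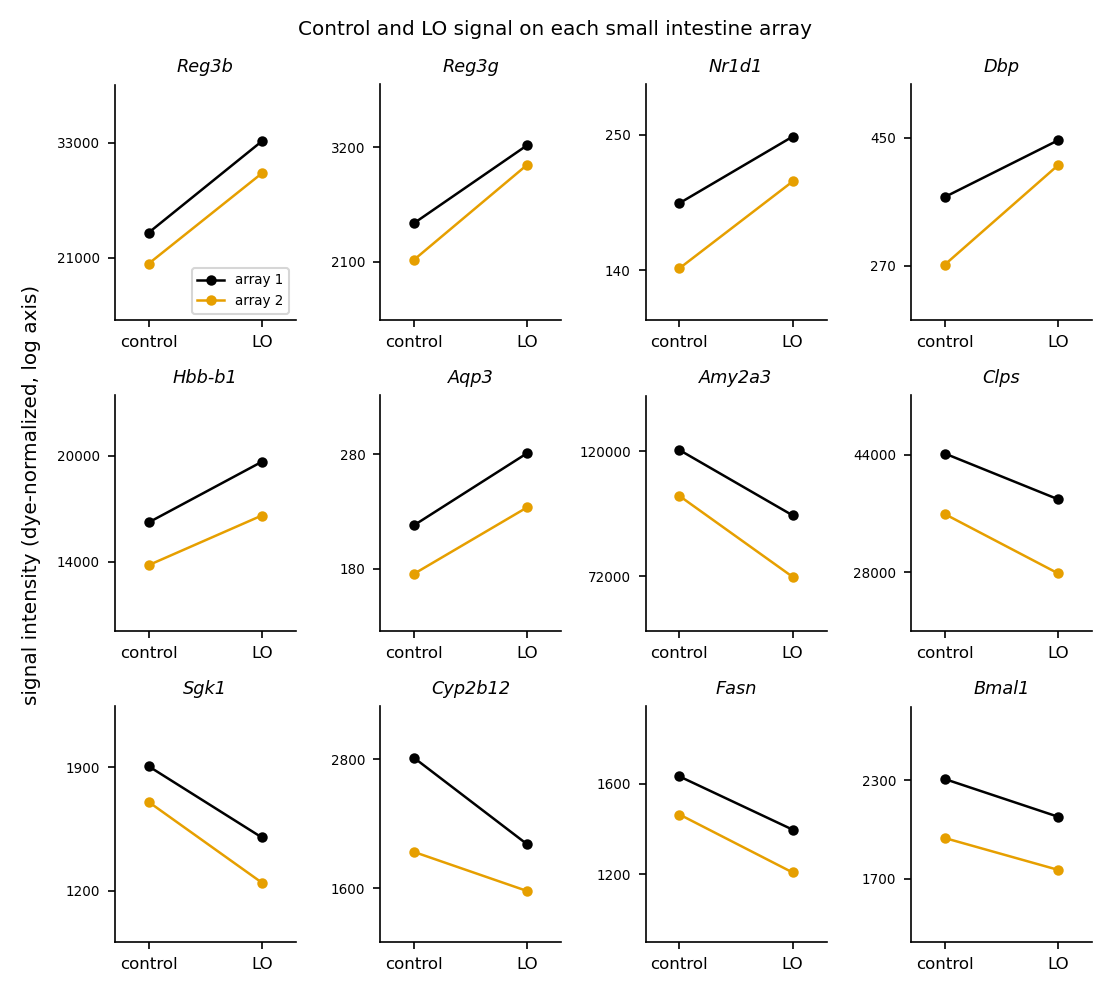
Signal intensity in the control and LO channels (x axis) on array 1 and array 2 for 12 named genes, on a log axis that spans a different range in each panel. Both lines run upwards from *Reg3b* to *Aqp3* and downwards from *Amy2a3* to *Bmal1*, with *Fasn* averaged over 2 probes.

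Transcripts of pancreatic acinar cells were lower with LO. These cells make the digestive enzymes that the pancreas delivers into the duodenum, and all 16 genes of the list that the array carries were bright in the intestine samples. Of the 16, 9 were lower on both arrays and 0 higher, beside 14.4% and 15.9% of all genes. The mean of both arrays was below 0 for every one of the 16, from -0.43 to -0.14. The median was -0.21 against 0.00 for all genes. *Amy2a3*, the pancreatic amylase, had a signal of 120699 in control and 92406 with LO on array 1, and of 100039 and 71859 on array 2. Its log2 LO/control was -0.39 and -0.48. Ranked by the smaller of both array values, it stood first among the genes that were lower.

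Outside the list, the amylase gene *Amy1* ran with it, at -0.36 and -0.31, though the probes of such close relatives may share targets. *Clps*, the cofactor of pancreatic lipase, had a signal of 44199 in control and 37077 with LO on array 1, and of 35017 and 27887 on array 2, which is -0.25 and -0.33. *Ctrl*, a chymotrypsin-like protease, gave -0.23 and -0.27. *Clps* and *Ctrl* were thus lower by a similar amount under either dye. *Gp2*, a glycoprotein of the enzyme granules that was not on the list, gave -0.44 and -0.25.

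The brightest acinar transcripts were split between the dyes. *Ctrb1*, chymotrypsinogen B, gave 0.33 on array 1 and -0.72 on array 2, and *Prss1*, a trypsinogen, gave 0.25 and -0.57. Opposite values were usual at every signal, and 4138 of all 5934 genes had them. The 89 genes with a mean signal of at least 50000 had a median of 0.10 on array 1 and -0.12 on array 2, and a median of 0.01 when averaged. Of the 12 acinar genes in that range 6 were lower on both arrays. Among all 89 genes, which include these acinar genes, 12 were lower on both arrays (13.5%). The 4 acinar genes below that range had a median of -0.27. Summed over the 16 genes, the signal was 1401710 in control and 1365150 with LO on array 1, and 1221980 and 922753 on array 2. How much pancreatic tissue or RNA each intestinal sample held was not tested, and most of these genes were not bright in the other tissues. The 7 bright in the spleen had a median of -0.07, the 7 in liver Group1 one of 0.10, and the 6 in liver Group2 one of -0.08.

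Of 14 brush border genes measured, 6 were lower on both arrays and 0 higher, beside 14.4% and 15.9% of all genes. The median was -0.07, from -0.12 on array 1 and -0.02 on array 2. *Alpi* had a signal of 90748 in control and 80987 with LO on array 1, and of 63209 and 60865 on array 2, or -0.16 and -0.05. *Anpep*, which releases amino acids from peptides, gave -0.24 and -0.10, and *Mep1b*, a subunit of the protease meprin, gave -0.08 on both arrays. None of the 14 reached 0.32 log2 units on both arrays. The 2 brightest of the list, *Alpi* and *Cdhr5*, were each lower on both arrays.

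Genes of fat handling showed few same-direction differences. *Apob*, the protein core of the particles that carry fat out of enterocytes, gave -0.16 and -0.23 as the mean of 5 probes, of which 3 were lower on both arrays. *Npc1l1*, the cholesterol uptake protein, gave -0.32 and -0.05. *Bco1*, which cleaves carotene, gave 0.15 and 0.10, and *Rbp2*, which carries retinol, gave 0.07 and 0.11. *Fabp2* and *Apoa4*, which are among the brightest, split between the dyes at 0.59 and -0.67 and at 0.53 and -0.89. Of the 22 genes 3 were higher, 4 lower and 15 opposite, beside 15.9% of all genes higher on both arrays and 14.4% lower. The median was -0.01. *Fasn*, the fatty acid synthase, was lower, at -0.25 and -0.27, and both of its probes had negative values on both arrays.

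Of 22 phase I genes measured, which encode enzymes that oxidize drugs and alcohols, 6 were lower on both arrays, 1 was higher and 15 were opposite. All genes gave 14.4% lower and 15.9% higher, and the median of the list was -0.05. *Cyp2b12* had a signal of 2819 in control and 1937 with LO on array 1, and of 1873 and 1581 on array 2, or -0.54 and -0.24. Its relative *Cyp2b21* gave -0.55 and -0.25 as the mean of 2 probes. Whether the probes of these cytochromes P450 separate them was not tested. *Adh1c*, an alcohol dehydrogenase, gave -0.34 and -0.21, and both groups had received ethanol. The only one higher was *Cyp3a62*, a cytochrome of the gut, at 0.07 and 0.10.

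The counts in this paragraph stand beside 15.9% of all genes higher on both arrays and 14.4% lower. Conjugating, antioxidant and efflux genes were close to level, with 4 of 36 higher, 7 lower and a median of -0.02. *Hmox1*, the heme oxygenase, gave 0.13 and 0.23, and *Abcc2*, an efflux pump, gave -0.05 and -0.12. Of 22 genes of fatty acid oxidation 4 were lower and 0 higher, with a median of -0.04, and *Ehhadh*, a peroxisomal enzyme, gave -0.05 and -0.21. Of 21 cholesterol synthesis genes 3 were higher and 4 lower, with a median of 0.00. *Hsd17b7*, an enzyme of the path, gave 0.18 and 0.15 at signals of 110 to 139.

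Other genes that were lower on both arrays had roles in signalling and metabolism. *Sgk1*, a kinase that raises sodium transport and answers to glucocorticoids, had a signal of 1908 in control and 1463 with LO on array 1, and of 1670 and 1236 on array 2. Its log2 LO/control was -0.38 and -0.43, and its values in the spleen were 0.30 and 0.06. *Acta1*, the actin of skeletal muscle, gave -0.53 and -0.26. *Ppp1r3b*, a subunit that directs a phosphatase to glycogen, gave -0.39 and -0.36 at signals of 45.1 to 78.6. *Zfp52*, *Wdr77* and *Grik3* were lower at signals of similar size, and *Wdr77* had a value of 0.03 under normexp correction.

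Lists for the rest of the tissue had medians between -0.05 and 0.05. Their counts stand beside 15.9% of all genes higher on both arrays and 14.4% lower. Sugar, amino acid and ion transport had 4 of 21 genes higher and 3 lower, and *Slc34a2*, a phosphate transporter, gave 0.09 and 0.42 over 2 probes that disagreed on array 1. Crypt stem and dividing cells had 4 of 15 higher and 4 lower. *Pcna*, a clamp of DNA replication, gave 0.06 and 0.05, and *Mcm7*, a part of the replication helicase, gave -0.10 and -0.09. Heat shock and chaperone genes had 3 of 20 higher and 5 lower, with *Hsph1* at -0.25 and -0.19. Interferon response genes had 2 of 20 higher and 4 lower. Immediate early and stress genes had 4 of 22 in each direction. Iron, zinc and copper handling had 2 of 14 higher and 4 lower, and ileal bile acid uptake had 1 of 5 higher and 3 lower. Smooth muscle had 2 of 7 higher and 0 lower, fibroblasts and matrix 3 of 10 higher and 2 lower, fat cells 1 of 8 in each direction, and enteric neurons and glia 0 of 7 higher and 1 lower.

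**Figure D4:**
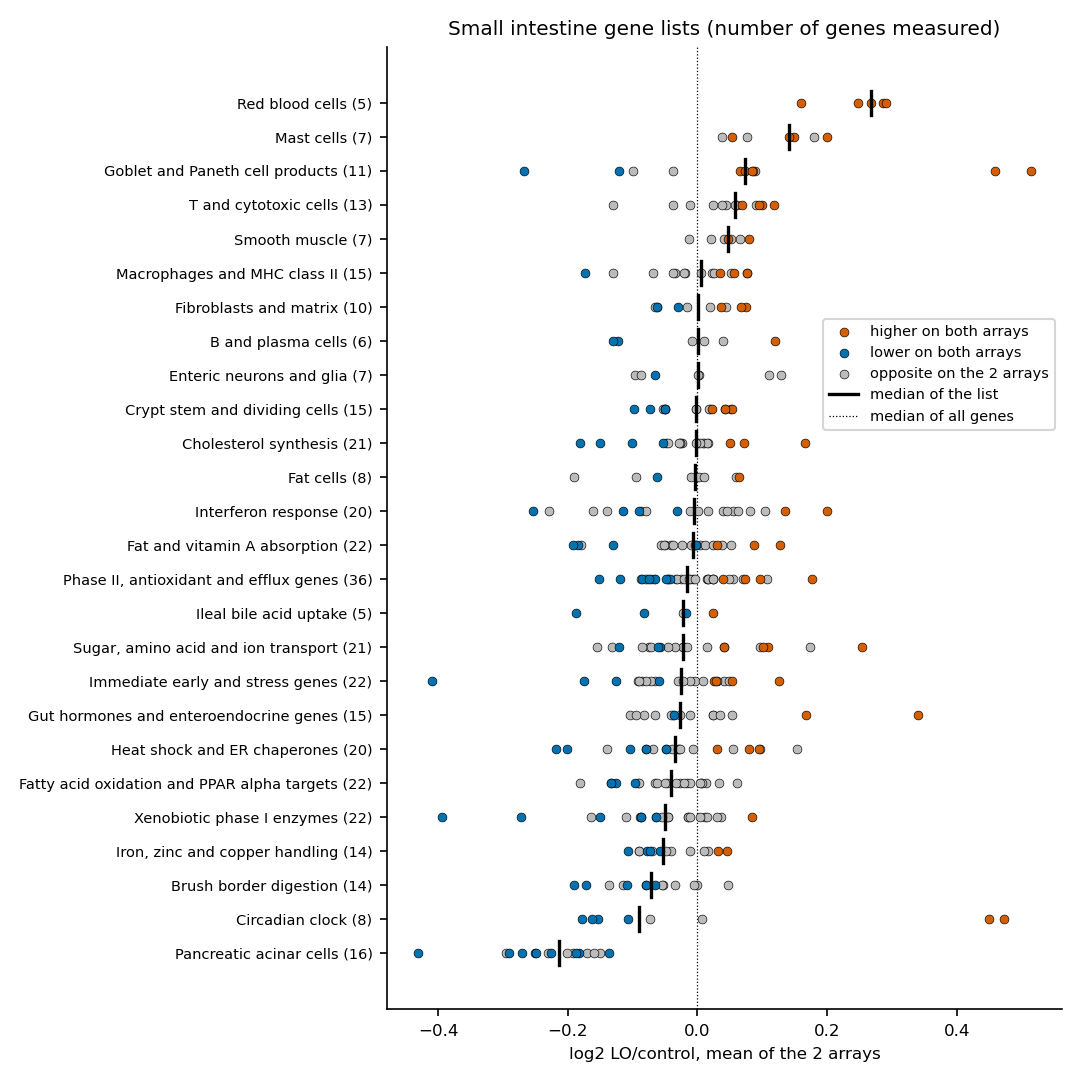
Mean log2 LO/control of both arrays (x axis) for the genes of 26 lists in the small intestine, with the number of genes measured in brackets. Colour shows whether both arrays gave the same direction, bars are list medians and the dotted line is the median of all genes. Red blood cells stand highest with a median of 0.27 and pancreatic acinar cells lowest with -0.21, while most lists lie close to 0.

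*Tent2*, a poly(A) polymerase whose former symbol *Papd4* is among those the study took to RT-PCR, had log2 values of 0.09 and -0.01, which oppose each other. The study listed *Papd4* among its most raised intestine genes and reported it as raised by RT-PCR too. The bright probe did not show this rise, and whether it is the probe the study listed was not tested.

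Whether the LO/control ratio of the intestine differed from that of another tissue was tested for each bright probe. The difference from the spleen was tested for 20349 probes and that from the liver for 17389, and limma called 0 of them at an adjusted p below 0.05 in either case. At an unadjusted p below 0.05 there were 717 and 806. The lowest adjusted p was 0.0751 against the spleen and 0.0845 against the liver. *Dbp*, lower in the liver, differed by 0.71 log2 units (SE 0.10, limma adjusted p = 0.631), and *Sgk1* differed from the spleen by -0.59 (SE 0.11, limma adjusted p = 0.99996). Per the file headers each tissue was on a slide of its own, so slide and tissue cannot be told apart in these differences.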

How the data were processed

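Tissue RNA pools of LO and control rats were hybridized together on Agilent rat 4×44-K 2-colour arrays. Groups, dyes and replicate numbers came from the sample labels. The authors scanned and extracted the arrays with Agilent Feature Extraction 11.0.1.1, and deposited for each feature a log10 ratio of Cy5 over Cy3 after background subtraction and dye normalization. They also deposited dye-normalized signal intensity values on a linear scale, median pixel intensity values, and the p-value of an error model for a single array. The series' value table, deposited as log10 ratios, was equal to the scanner ratios for every bright intestine feature.

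Log10 ratios were turned to log2 LO over control (sign turned for array 2). The methods' cut-offs were applied, and a lower limit of 0.32 log2 units. Dye-swap averages of the 4 pairs were fitted with limma 3.58.1 in R 4.3.3, with a coefficient per tissue and Benjamini-Hochberg adjustment at 0.05. On the 8 arrays, 44.3% to 64.7% of features passed the software's background test under both dyes. Replicate numbers pair the arrays by dye orientation, which the labels give. Deviations correlated across pairs with r from 0.51 to 0.82. The calls and the fit were tested on simulated data. The replicates are technical.

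Genes were averaged over their probes. Named genes were, by rule, the 12 highest and 12 lowest in the smaller of both arrays, up to 3 per direction and the 2 brightest of each list, *Gapdh* and the RT-PCR genes, and probes past the methods' cut-offs. The members, lists and rule were chosen with earlier results of these data known. The number of arrays limits the precision. Tables and figures used Python 3.11.15. Alternatives were each array left out, the mean of both arrays, an error-model p below 0.01, normexp with an offset of 50 and loess, removal of the dye effect of the other pairs, other handling of copies and flags, signals of at least 200, and other limma designs.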

Additional observations from a re-analysis of the deposited data

Results flagged for a closer look

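Some probes fell outside the brightness rule because only 1 sample was well above background. On both arrays 16 probes were well above background in the LO channel alone, whichever dye it carried, and 13 in the control channel alone. For comparison 311 probes were so in Cy5 alone and 169 in Cy3 alone. The 16 were a little more frequent than the 13, and the difference was not tested. The highest LO signal among the 16 was 54.8. Among the 13, the probe XM_345746 had control signals of 44.1 and 48.5 against 13.9 and 14.6 with LO, and ENSRNOT00000040023 had control signals of 19.8 and 87.0 against 7.22 and 6.15. No probe of either kind entered a comparison.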

How the results depend on the processing

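The counts depended strongly on asking both arrays to give the same direction. Leaving out 1 array moved the probes past the methods' cut-offs from 5 to between 208 and 615 upwards and from 3 to between 230 and 685 downwards. It moved those past 0.32 log2 units from 34 to between 1184 and 1426 upwards and from 16 to between 1357 and 1444 downwards. With the mean of both arrays the counts were 9, 25, 113 and 101 in that order. Normexp with loess gave 2, 1, 6 and 5, and removal of the dye effect, over 14827 probes, gave 0, 0, 3 and 2. None of the 8 probes past the methods' cut-offs was bright in the liver pairs. Removal of the dye effect was therefore not run on those probes, and its counts do not show what it would do to them. An error-model p below 0.01 on both arrays left 5 probes higher and 2 lower past 0.32 log2 units, and signals of at least 200 left 11 and 8. In the other settings these 4 counts stayed within 1.5 times, the series' value table, tried after seeing the data, among them.

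The limma counts were 1 higher and 0 lower. An intensity trend gave 4 higher and 4 lower, and normexp gave 16 and 35. Without array 1 there was 1 higher, without array 2 there were 0 higher and 1 lower, so the higher count ran from 0 to 1 and the lower count from 0 to 1. Dim spleen and liver values, the intestine arrays alone, all 8 arrays without a replicate block or with the replicate block, and leaving out flagged features (chosen after seeing the data) each gave 0 higher. The cause was not tested. Red blood cell and acinar medians kept their sign in all 6 settings run, from 0.19 to 0.29 and from -0.31 to -0.19. Not every setting could move them. Removal of the dye effect leaves a probe's mean of both arrays unchanged, so it could move a median only by leaving probes out. The red blood cell median was 0.27 with and without it. The lowest acinar signal was 2748, so the acinar median was -0.21 with and without the limit of 200. The clock median ran from -0.15 with signals of at least 200 to nearly 0 on array 1 alone. Dim signals limit the ratios of transcripts below about 100.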
